A study of Mus musculus with 4 samples.

Results

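Among thymic epithelial cells (TECs) sorted from the mouse thymus, 1104 of 28055 cells carried RNA of genes that mark TEC progenitors together with a high level of Ccl21a, which encodes a chemokine of the medulla. These cells were chosen by measured values. Each had at least 200 genes detected and at most 25% of its unique molecular identifiers (UMIs, 1 for each captured RNA molecule) from mitochondrial genes. Each also had at least 1 UMI of at least 3 of the 6 panel genes Ackr4, Dcn, Serpinf1, Prelp, Gpm6b and Gas1, at least 1 UMI of the epithelial gene Epcam, at least 50 Ccl21a UMIs per 10000, and at most 2 UMIs summed over the 5 T cell genes Trbc2, Cd3d, Cd3e, Cd3g and Lck. They are called Ccl21a-high panel-positive cells here, after the rule that chose them. They were set beside 1356 Ccl21a-low progenitor-like cells, which met the same rule except for Ccl21a, and beside 8986 other Ccl21a-high TECs, which met it except that they had fewer than 3 panel genes.

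The study asked how TECs change when RANK and CD40 signalling are removed in the adult thymus. Droplet-based single-cell RNA sequencing was done on EpCAM+CD45-TER119- cells of 4 conditions, each 1 library from 3 pooled mice. The mice were 6 weeks old, either wild-type C57BL/6 females or Cd40-/- mice on that background, whose sex is not given in the sources used here. They had received 5 mg/kg of antibody subcutaneously at 4 weeks of age, 2 weeks before the analysis. WT-Control and Cd40-/- Control mice received rat IgG as isotype control, whereas WT-RANKL-Ab and Cd40-/- RANKL-Ab mice received OYC1, a monoclonal antibody to mouse RANKL. Cd40 was deleted in the whole animal and the antibody binds RANKL from any source, so neither was limited to TECs. With 1 library per condition, no difference between conditions could be tested, and the intervals given cover counting error only.

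The thymic medulla draws in developing T cells with CCL21, the ligand of CCR7, which a subset of medullary TECs (mTECs) makes. Other mTECs, driven by RANK and CD40 through NF-kB, mature to express AIRE and a wide range of tissue-restricted antigens. TEC progenitors of the adult thymus carry matrix and scavenger genes such as Dcn, a small proteoglycan, and Ackr4, an atypical receptor that takes up CCL19, CCL21 and CCL25, while cortical TECs (cTECs) carry the thymoproteasome subunit Psmb11 and the protease Prss16.

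Ccl21a lies on chromosome 4 among near-identical copies, so reads can be shared between copies and the count of a single copy is uncertain. Its symbol names 2 features of the deposited tables, which were summed. One copy, listed as Gm21541 (ENSMUSG00000094065, chromosome 4, 41903610 to 41904743, plus strand, GRCm38) and matched to Ccl21d in RefSeq, was counted apart from Ccl21a. The 250 bases before the RefSeq start of each gene are printed so that their likeness can be seen, 5′ to 3′ on the strand of the gene and as RefSeq gives them on GRCm38.p6, at chr4:42773992-42774241 (minus strand) for Ccl21a and chr4:41903363-41903612 (plus strand) for Ccl21d. The capital letter marks the base that differs.
Ccl21a: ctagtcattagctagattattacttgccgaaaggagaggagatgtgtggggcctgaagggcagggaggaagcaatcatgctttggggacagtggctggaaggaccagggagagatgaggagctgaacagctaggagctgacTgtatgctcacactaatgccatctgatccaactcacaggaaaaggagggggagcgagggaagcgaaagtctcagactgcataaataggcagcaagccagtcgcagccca
Ccl21d: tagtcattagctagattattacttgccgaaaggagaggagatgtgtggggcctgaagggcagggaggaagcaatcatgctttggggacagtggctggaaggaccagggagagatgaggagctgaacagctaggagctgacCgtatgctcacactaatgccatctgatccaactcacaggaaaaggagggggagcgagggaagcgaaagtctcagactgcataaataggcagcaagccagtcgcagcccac
Over the 249 bases that align, 248 (99.6%) were identical.

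The library totals were 95607338 UMIs for WT-Control, 48888745 for WT-RANKL-Ab, 66755852 for Cd40-/- Control and 19175068 for Cd40-/- RANKL-Ab. Cd40, the deleted gene, was at 38.9 UMIs per 1000000 (CPM) in the Ccl21a-high panel-positive cells of WT-Control and at 14.2 in WT-RANKL-Ab, against 3.14 and 3.11 in the libraries of Cd40-/- Control and Cd40-/- RANKL-Ab, so both libraries labelled Cd40-/- were below both labelled WT. The Cd40-/- libraries shared 205 cell barcodes, 9.85% of the smaller library, while each other pair shared 0.817% to 1.42%. The shared barcodes had a median of 723 UMIs in Cd40-/- Control and 24073 UMIs in Cd40-/- RANKL-Ab. Of the Ccl21a-high panel-positive cells, 34 in Cd40-/- RANKL-Ab and 0 in Cd40-/- Control carried one of them, which left 308 cells in Cd40-/- RANKL-Ab without them. The shares, counts of genes, slopes and main condition values without them are given beside the results.

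Of the 1104 cells, 215 came from WT-Control, 281 from WT-RANKL-Ab, 266 from Cd40-/- Control and 342 from Cd40-/- RANKL-Ab, and values of 4 libraries are given in this order throughout. The median depth was 9341, 8574, 7334 and 8714 UMIs per cell, against 6727, 6796, 6138.5 and 8904 UMIs in Ccl21a-low progenitor-like cells and 6434, 6619.5, 5961 and 7378 UMIs in other Ccl21a-high TECs. The Ccl21a-high panel-positive cells were thus deeper than the other Ccl21a-high TECs in each library, and deeper cells have more chances to show 3 panel genes. Whether some of these barcodes held more than 1 cell was not tested.

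Ccl21a separated the cells with at least 3 panel genes into a low and a high range. Of the 2460 such cells that met the other gates, 1285 had under 10 Ccl21a UMIs per 10000 and 1027 had 100 or more. Only 12 cells lay just inside the limit, between 50 and 60 per 10000, and 17 lay just outside it, between 40 and 50. Cd40-/- Control held 7 of the 12 and 10 of the 17, so the ranges were less separated there. The lowest cell inside was at 51.7, 54.1, 50.7 and 57.3 per 10000, and the highest outside at 31.0, 46.3, 49.2 and 47.5. The median inside was 290.1, 299, 214 and 404 per 10000, with the highest value in Cd40-/- RANKL-Ab.

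**Figure D1:**
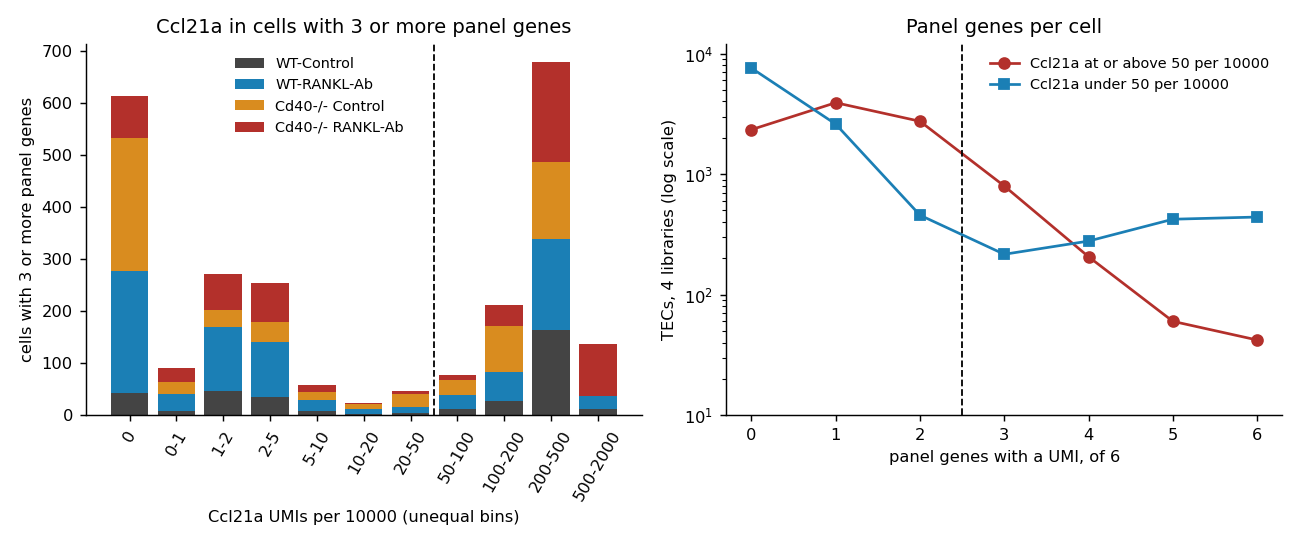
How the cells were chosen. Left, the number of cells with at least 3 panel genes (vertical axis) by Ccl21a UMIs per 10000 (horizontal axis), stacked by library. Right, the number of TECs (log axis) by how many of the 6 panel genes had a UMI, for cells at or above 50 Ccl21a UMIs per 10000 and for cells below. TECs of high Ccl21a fell from 3909 with 1 panel gene to 42 with all 6, whereas TECs of low Ccl21a fell from 7576 with 0 to 216 with 3 and stood at 440 with all 6.

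The panel separated the cells less clearly than Ccl21a did. TECs of low Ccl21a with 0, 1, 2, 3, 4, 5 and 6 panel genes numbered 7576, 2597, 456, 216, 278, 422 and 440, with a dip at 3. TECs of high Ccl21a numbered 2336, 3909, 2741, 796, 206, 60 and 42, with no dip. Of the 1104 Ccl21a-high panel-positive cells, 796 (72.1%) had exactly 3 panel genes, the fewest the rule allows, and 308 (27.9%) had 4 to 6. The commonest set was Dcn, Prelp and Gas1 in 343 cells (31.1%), followed by Ackr4, Dcn and Gas1 in 286 (25.9%) and by these 4 genes together in 124 (11.2%), while all 6 genes were found in 42 (3.80%).

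To compare cells of unequal depth, each cell was thinned to 1000 UMIs. Serpinf1, a secreted serpin, then had a UMI in 1.40%, 4.64%, 4.14% and 3.22% of Ccl21a-high panel-positive cells, against 20.7%, 26.4%, 20.2% and 19.6% of Ccl21a-low progenitor-like cells. Gpm6b, a membrane proteolipid, was at 1.40% to 3.57% against 16.0% to 19.2%, and Ackr4 at 7.91% to 14.3% against 32.4% to 36.3%. The rule used these genes, so their shares are a description with no test. Gas1, a growth-arrest protein of the cell surface, was at 36.8% to 42.4% against 38.5% to 47.3%. Dcn was at 32.6%, 46.8%, 45.5% and 63.7% against 77.2%, 71.9%, 56.9% and 58.9%.

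Mgp, matrix Gla protein, is a marker given for these cells that the rule did not use. It was chosen with earlier results of these data known, so its level in these cells is no independent evidence. After thinning it had a UMI in 83.7%, 75%, 80.1% and 79.5% of them, above the 52.9% to 65.4% of Ccl21a-low progenitor-like cells and the 33.7% to 58.3% of other Ccl21a-high TECs. In T cell-like and tuft-like cells, Mgp was at 0.592% to 5.18%. These cells give only a rough measure of free RNA in the droplets. The tuft-like cells had no limit on Ccl21a and reached 376, 559, 202 and 278 Ccl21a UMIs per 10000, so some may not be free of Ccl21a-high cells. Ptprc (CD45), which the sort selected against, was found in 0 of the thinned cells, which allows shares of up to 1.40%, 1.07%, 1.13% and 0.877%, and Pdgfra, a receptor of fibroblasts, in 0% to 0.357%. Summed over each list, fibroblast markers were at 16.6 to 34.1 CPM, pericyte markers at 7.36 to 17.5 CPM, T cell markers at 29.6 to 42.2 CPM, leukocyte markers at 4.25 to 40.1 CPM and tuft markers at 139 to 282 CPM. Endothelial markers were at 1.42 to 9.43 CPM with Kdr at 0, and mesothelial markers at 2.83 to 44.6 CPM with Wt1 at 0.

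Ccl21a-high panel-positive cells made up the largest share of kept cells in Cd40-/- RANKL-Ab. The share was 2.10% in WT-Control (95% Clopper-Pearson interval 1.83% to 2.40%), 3.92% in WT-RANKL-Ab (3.48% to 4.40%), 3.10% for Cd40-/- Control (2.74% to 3.48%) and 16.4% for Cd40-/- RANKL-Ab (14.9% to 18.1%). Its log2 ratio to WT-Control was 0.90 (0.64 to 1.16), 0.56 (0.29 to 0.82) and 2.96 (2.71 to 3.22) in the other 3 libraries. A share of kept cells also rises when other cells are lost, and a gain of these cells and a loss of others cannot be told apart here. The Cd40-/- RANKL-Ab library held 2082 kept cells against 7164 to 10218 in the others. Without the shared barcodes the shares in the Cd40-/- libraries were 3.17% and 16.4%, and with each cell thinned to 3000 UMIs before the rule the 4 shares were 0.615%, 1.78%, 1.51% and 7.59%.

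Other denominators gave another order. Of all progenitor-like cells, whatever their Ccl21a, the Ccl21a-high panel-positive cells were 59.7% of 360, 34.3% of 819, 40.1% of 664 and 55.4% of 617. The log2 ratio to WT-Control was -0.80 (-1.06 to -0.54) in WT-RANKL-Ab, -0.58 (-0.84 to -0.31) for Cd40-/- Control and -0.11 (-0.36 to 0.15) for Cd40-/- RANKL-Ab, the last with an interval that includes no difference. With at least 4 panel genes required, that last ratio was 0.19 (-0.33 to 0.74), and with each cell thinned to 3000 UMIs it was 0.33. Without the shared barcodes the Cd40-/- libraries had 40.1% of 663 and 55% of 560. Of all Ccl21a-high TECs, they were 6.11% of 3518, 7.98% of 3523, 13.1% of 2035 and 33.7% of 1014. A gene of the rule moved in the same order outside them: Dcn had a UMI in 8.93%, 13.8%, 18.8% and 35.1% of the other Ccl21a-high TECs after thinning. The part of Dcn in the shares was not tested.

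**Figure D2:**
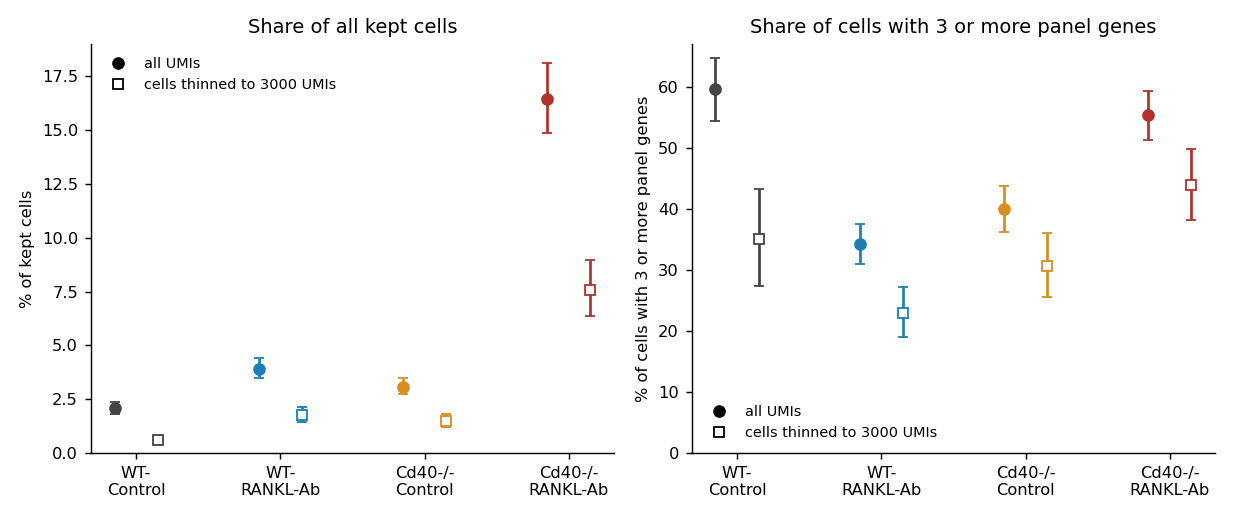
The share of Ccl21a-high panel-positive cells (vertical axes, percent) by library, of all kept cells and of all cells with at least 3 panel genes. Filled points use all UMIs, open points use cells thinned to 3000 UMIs, and bars are 95% Clopper-Pearson intervals for counting error. Cd40-/- RANKL-Ab, at 16.4%, lies above the other libraries as a share of kept cells, and WT-Control, at 59.7%, is highest as a share of cells with at least 3 panel genes when all UMIs are used.

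To see which other genes accompanied the choice, UMIs were summed over the cells of each group in each library and the groups were compared with edgeR's quasi-likelihood test over 4 libraries, with library as a block. The genes of the rule stayed out of the test. Because the groups were separated by RNA of the same cells, the counts describe what accompanies Ccl21a and the panel. Against Ccl21a-low progenitor-like cells, 1343 of 11069 genes (12.1%) were higher and 1211 (10.9%) lower at an adjusted p under 0.05, together 23.1%. Against other Ccl21a-high TECs, 927 of 11804 genes (7.85%) were higher and 950 (8.05%) lower, together 15.9%. Without trimmed mean of M values (TMM) scaling, the first comparison split into 995 higher and 1856 lower, with the median of all genes moved by -0.12 on the log2 scale. Without the library block, the second comparison called 4 genes in place of 1877, with 1086 at an unadjusted p under 0.05, and without WT-RANKL-Ab it called 1097. Without the shared barcodes the comparisons called 2505 and 1786 genes.

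Most genes that passed both tests lay between the other groups. By the rule, the cells share high Ccl21a with the other Ccl21a-high TECs and panel genes with the low cells. Levels between these groups are therefore a description of the choice. Of 865 genes called in both, 672 (77.7%) were between the Ccl21a-low progenitor-like cells and the other Ccl21a-high TECs, 150 were higher than in both (1.37% of the 10934 genes tested in both) and 43 were lower than in both (0.393%). The last 2 counts together, 193, fell to 108 by DESeq2, 119 after thinning each cell to 3000 UMIs, 90 with at least 4 panel genes, 86 without Cd40-/- Control, 108 without WT-Control and 127 without Cd40-/- RANKL-Ab. Without the library block the count was 0, with 95 genes at an unadjusted p under 0.05 in both comparisons.

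A second measure of position used, for each library, the genes that differed between the other groups by at least 1 on the log2 scale and in 1 direction in each of the other 3 libraries. Over these 414, 387, 435 and 445 genes, the difference of the Ccl21a-high panel-positive cells from the Ccl21a-low cells was regressed on the whole difference between the other groups, which gave slopes of 0.81, 0.68, 0.76 and 0.80. A slope of 0 places the cells with the Ccl21a-low cells and a slope of 1 with the other Ccl21a-high TECs. The same sum of Ccl21a-low cells was subtracted on both axes, so its counting error alone gives a positive slope, and the slopes are a description. They were, without the shared barcodes, 0.81, 0.68, 0.75 and 0.84. With at least 4 panel genes required, the slopes were 0.71, 0.52, 0.61 and 0.66. The slopes run across genes, which are not independent replicates.

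**Figure D3:**
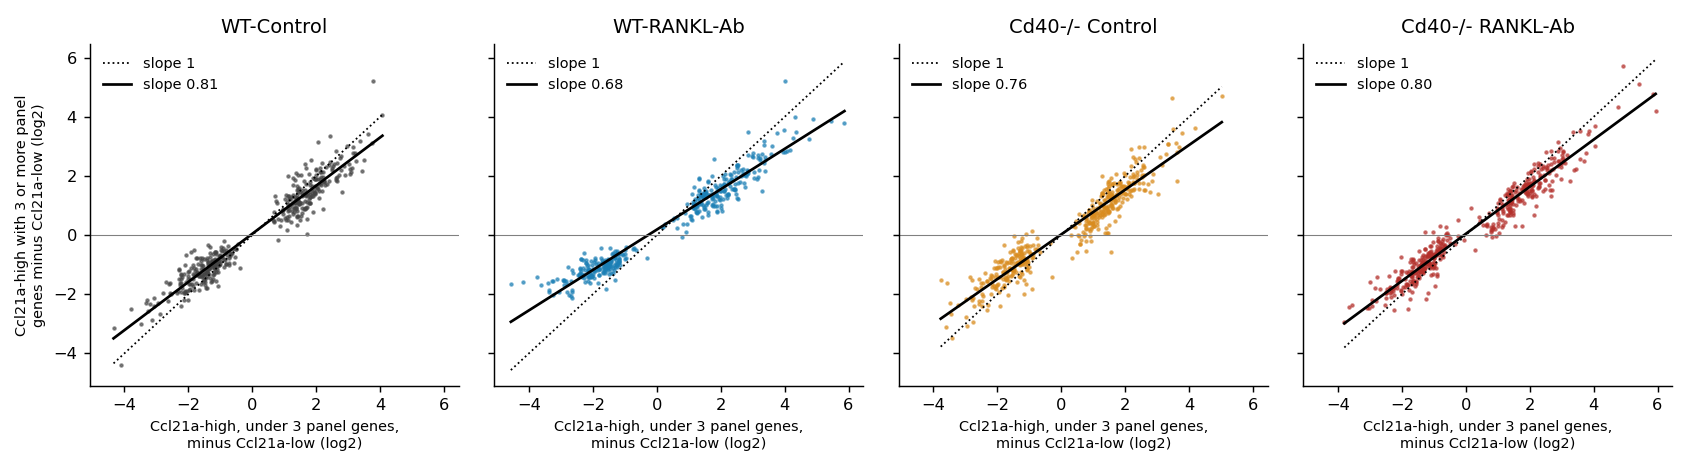
Position of the Ccl21a-high panel-positive cells between the other groups, 1 panel per library. Each point is a gene chosen in the other 3 libraries, placed by its difference between other Ccl21a-high TECs and Ccl21a-low progenitor-like cells (horizontal axis) and between Ccl21a-high panel-positive cells and Ccl21a-low progenitor-like cells (vertical axis), both in log2(CPM + 10), with the same Ccl21a-low level subtracted on both axes. The fitted lines have slopes of 0.81, 0.68, 0.76 and 0.80.

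Gpx3, a secreted glutathione peroxidase (ENSMUSG00000018339, chromosome 11, 54902453 to 54910377), was higher than in both groups. Its level was 2634, 2101, 1245 and 2077 CPM (mean 2014 ± 574, SD, n = 4 libraries). The 4 libraries are different conditions, so this SD includes differences between conditions. Gpx3 was at 29.5 to 60.5 CPM in Ccl21a-low progenitor-like cells and 539 to 1175 CPM in other Ccl21a-high TECs, so the groups did not overlap. The log2 difference was 5.62 ± 0.18 (SE, adjusted p = 3.86e-06 by edgeR) from the low cells and 1.17 ± 0.08 (adjusted p = 8.68e-06) from the other Ccl21a-high TECs. After thinning, Gpx3 had a UMI in 56.4% to 74.0% of the cells, against 2.61% to 3.64% and 31.3% to 43.6% of the other groups. T cell-like and tuft-like cells were at 0.735% to 12.2%, a range that includes the shares in the low cells. The tuft-like cells had no limit on Ccl21a. Among them, 16.8%, 4.94%, 5.42% and 3.45% had UMIs of both Mgp and Gpx3 before thinning. The part of free RNA was not tested. Before thinning, 92.1%, 81.9%, 85.3% and 92.1% of the Ccl21a-high panel-positive cells had UMIs of both Mgp and Gpx3, and so did 63.3%, 44.4%, 53.1% and 65.2% of the other Ccl21a-high TECs.

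Mgp (ENSMUSG00000030218, chromosome 6, 136872435 to 136875823) was at 2885, 2104, 2958 and 2068 CPM (mean 2504 ± 483, SD across the different conditions). Ccl21a-low progenitor-like cells had 981 to 1715 CPM and other Ccl21a-high TECs had 760.1 to 1596 CPM, again without overlap. The log2 differences were 1.08 ± 0.16 (adjusted p = 0.00154 by edgeR) and 1.00 ± 0.12 (adjusted p = 0.000218). As a marker given for these cells, Mgp is a description here.

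F3, tissue factor, which starts blood clotting, was at 135, 71.7, 273 and 300.4 CPM, with the higher levels in the Cd40-/- libraries. In each library it was above both other groups, with log2 differences of 1.83 ± 0.34 (adjusted p = 0.00533 by edgeR) from the low cells and 1.68 ± 0.12 (adjusted p = 9.99e-06) from the other Ccl21a-high TECs. Serping1, the inhibitor of the complement protease complex C1, was at 92.0, 70.6, 86.7 and 94.3 CPM against 19.4 to 61.9 CPM and 32.2 to 50 CPM, with no overlap. C1ra, a protease of that complex, was higher by 1.18 and 0.79. Slc7a11, the cystine transporter, was at 261, 151, 237 and 139 CPM against 4.31 to 21 CPM in the low cells and 94.2 to 158 CPM in the other Ccl21a-high TECs, which overlapped between libraries but were lower within each. Anxa8, an annexin (1.84 and 0.89), Lox, a collagen crosslinker (1.97 and 0.68), Ccnd3, a D-type cyclin (0.86 and 0.65), and Scn7a, a sodium channel (4.01 and 0.64), complete the 10 genes that exceeded both groups by most, among genes at 50 CPM or more in 1 of the groups and above both in 4 of 4 libraries.

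Under the same limits, the 5 named genes lower than in both groups follow. Fabp4, a fatty acid binding protein, was at 181, 28.0, 98.8 and 11.3 CPM, with differences of -1.58 and -0.91, the second of which lost its call in DESeq2 (adjusted p = 0.0778) and without the shared barcodes. Crip3 differed by -1.63 and -0.62, Fxyd2, a regulator of the sodium pump, by -1.79 and -0.60, Bok, of the Bcl-2 family, by -1.19 and -0.49, and Kif26a, a kinesin, by -0.80 and -0.69.

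**Figure D4:**
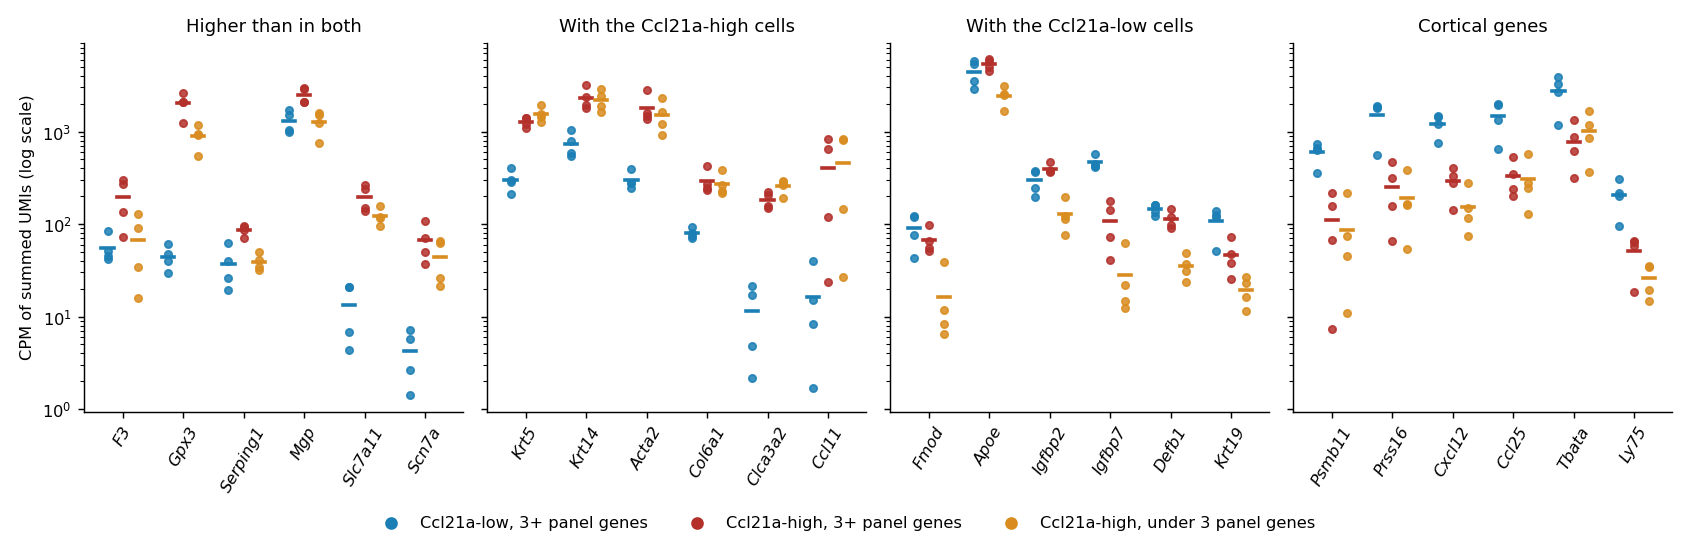
Levels of 24 genes in CPM (vertical axes, log scale) in the summed cells of each library, for Ccl21a-high panel-positive cells, Ccl21a-low progenitor-like cells and other Ccl21a-high TECs. Each point is a library and each bar the mean of 4. Gpx3 stands at 1245 to 2634 CPM in the first group, above the 29.5 to 60.5 CPM and 539 to 1175 CPM of the others.

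Progenitor genes that the rule did not use were mostly above the other Ccl21a-high TECs and split against the low cells. The list was chosen with earlier results of these data known, and the other Ccl21a-high TECs were defined by fewer than 3 panel genes. Its direction against them is therefore no independent evidence. The shares over all genes, for this and each list below, were 7.85% higher and 8.05% lower than in other Ccl21a-high TECs. They were 12.1% and 10.9% against the low cells. Against other Ccl21a-high TECs, 15 of 17 tested were higher and 0 lower (median log2 difference 0.61, against -0.02 over all genes). Against Ccl21a-low progenitor-like cells, 7 of 19 were higher and 5 lower (median 0.12, against -0.00 over all genes). Fmod, fibromodulin, was at 66.1, 51.3, 55.7 and 96.8 CPM, against 6.51 to 38.9 CPM in other Ccl21a-high TECs (2.30 ± 0.25, adjusted p = 0.00015 by edgeR) and 43.3 to 121 CPM in the low cells (adjusted p = 0.589). Apoe, a lipid carrier, was at 5853, 4993, 6015 and 4544 CPM, 1.16 above the other Ccl21a-high TECs, while its difference of 0.46 from the low cells did not pass (adjusted p = 0.0894). Il33, an alarmin, was at 15.4, 13.1, 5.84 and 7.64 CPM against 73.8 to 102 CPM (-2.92 ± 0.17) and 1.35 to 5.08 CPM in other Ccl21a-high TECs (1.65 ± 0.32). Bmp4, a growth factor, and Cthrc1, a matrix protein, were lower than in the low cells by -3.57 and -3.30, with Bmp4 at 0 CPM in WT-Control and Cd40-/- Control. Plet1, a surface protein of early TECs, was higher than in the low cells, at 24.3 to 43.9 CPM against 2.16 to 7.64 CPM.

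Of extracellular matrix genes, 7 of 22 were higher and 4 lower than in the low cells, and 5 of 20 were higher and 1 lower than in other Ccl21a-high TECs. Col6a1 and Col6a2, chains of collagen VI, were higher than in the low cells by 1.98 and 2.37 and did not pass against the other Ccl21a-high TECs (adjusted p = 0.217 and 0.211), whereas Sparc, a collagen-binding protein, was 0.88 above the latter and did not pass against the former (adjusted p = 0.852). Of the IGF list, 6 of 8 were higher and 0 lower than in other Ccl21a-high TECs, and 4 of 8 higher and 1 lower than in the low cells. Igfbp2, which binds insulin-like growth factors, was at 377, 362, 375 and 469.7 CPM against 75.3 to 198 CPM in other Ccl21a-high TECs (1.70 ± 0.13) and 198 to 374 CPM in the low cells (0.58 ± 0.18). Igfbp7 lay between the groups, with differences of -2.13 and 2.12. Of the Wnt list, 5 of 12 were higher and 2 lower than in the low cells, and 3 and 1 of 12 against the other Ccl21a-high TECs. Wnt5a, a ligand, was above both groups (2.81 and 0.83), and Sfrp1, a secreted Wnt antagonist, and Fzd2, a receptor, were 1.75 and 1.76 above the low cells. Of BMP and activin genes, 3 of 14 were higher and 3 lower than in the low cells and 4 and 2 of 13 against the other Ccl21a-high TECs, and of Notch genes 4 of 10 and 1, and 3 of 11 and 4. Over all genes, 12.1% were higher and 10.9% lower than in the low cells, and 7.85% and 8.05% against other Ccl21a-high TECs.

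Basal keratins and most contractile genes were above the low cells. Krt5, a basal keratin, was at 1209, 1388, 1082 and 1398 CPM against 209 to 404 CPM in the low cells (2.24 ± 0.11) and 1276 to 1924 CPM in other Ccl21a-high TECs (-0.28 ± 0.06). Its partner Krt14 was 1.78 above the low cells and did not pass against the other Ccl21a-high TECs (adjusted p = 0.453), and Krt17 lay between (1.66 and -0.52). In all, 5 of 8 keratins were higher and 3 lower than in the low cells, the lower ones being the simple keratins Krt8 (-0.34), Krt18 (-0.36) and Krt19 (-1.10), and 1 was higher and 3 lower than in other Ccl21a-high TECs. Of contractile genes, 7 of 11 were higher and 1 lower than in the low cells (median 1.04), and 2 of 12 higher and 4 lower than in other Ccl21a-high TECs (median 0.11). Acta2, smooth muscle actin, was at 1365, 1465, 1601 and 2791 CPM against 248 to 391 CPM in the low cells (2.69 ± 0.10) and 914 to 2280.2 CPM in other Ccl21a-high TECs. Cald1 and Tpm2, which bind actin, were 2.56 and 1.53 above the low cells, while Mylk, a myosin kinase, was lower by -1.98. The pericyte markers beside this list were at 7.36 to 17.5 CPM. Of epithelial adhesion and identity genes, 3 of 14 were higher and 3 lower than in the low cells, and 3 and 1 of 14 against the other Ccl21a-high TECs. The shares over all genes were 12.1% and 10.9%, and 7.85% and 8.05%.

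Most genes of cTECs were below the low cells. Of 10, 9 were lower and 0 higher than in Ccl21a-low progenitor-like cells (median -1.95), and 3 were higher and 0 lower than in other Ccl21a-high TECs (median 0.37). Psmb11 was at 7.30, 214, 67.4 and 159 CPM against 353 to 739 CPM in the low cells (-2.66 ± 0.45), and Prss16 at 66.1, 466, 158 and 314 CPM against 552 to 1866 CPM (-2.63 ± 0.22). Neither passed against other Ccl21a-high TECs (adjusted p = 0.279 and 0.304). After thinning, Psmb11 had a UMI in 2.33%, 8.57%, 3.38% and 5.26% of the cells, below the 2.44%, 16.5%, 23.5% and 9.47% of T cell-like cells and above the 0.576%, 1.81%, 2.22% and 3.57% of tuft-like cells, and the part of free RNA was not tested. Cxcl12 and Ccl25, chemokines of the cortex, differed from the low cells by -2.00 and -2.02, at 143 to 409 CPM and 202 to 528 CPM. Gsta4, a glutathione transferase (-2.96), and Cd83 (-2.63) were among the 5 largest falls against the low cells for genes at 50 CPM or more in the higher group and of 1 sign in 4 of 4 libraries.

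Of 14 chemokine and scavenger genes, 4 were higher, 2 lower and 8 did not pass against the low cells, and 2 were higher, 6 lower and 6 did not pass against other Ccl21a-high TECs. Among all genes, 12.1% were higher and 10.9% lower in the first comparison, and 7.85% and 8.05% in the second. Gm21541, which can share reads with the Ccl21a of the rule and so gives no test, was at 112, 213, 127 and 371 CPM, beside 1.08 to 4.07 CPM in the low cells and 132 to 463 CPM in other Ccl21a-high TECs. For each 1000 Ccl21a UMIs there were 3.98, 7.63, 6.05 and 9.72 UMIs of Gm21541, so the ratio of these copies was not constant across libraries. Cxcl14 was at 101, 80.5, 75.9 and 32.6 CPM against 0.955 to 2.85 CPM in the low cells (5.78 ± 0.23). Ccl19, the other ligand of CCR7, was at 152, 108, 87.1 and 141 CPM, between the 6.23 to 47.7 CPM of the low cells and the 144 to 286 CPM of the other Ccl21a-high TECs (2.79 and -0.98). Ccl20, the ligand of CCR6, was at most 8.92 CPM and was 3.35 log2 units below the other Ccl21a-high TECs, with 0 in WT-RANKL-Ab. Among thymopoietic cytokines, 1 of 5 was higher and 2 lower than in the low cells and 1 of 6 higher than in other Ccl21a-high TECs. Il7, which T cell precursors need, was at 249, 289.9, 319.8 and 280.3 CPM against 169 to 225 CPM in the low cells (0.60 ± 0.07), and Kitl, stem cell factor, was at 11.3 to 32.8 CPM against 72.6 to 121 CPM (-1.97 ± 0.15).

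Tnfrsf11a, which encodes RANK, lay between the groups. It was at 42.1, 43.3, 34.1 and 33.4 CPM, below the 55.2 to 79.5 CPM of other Ccl21a-high TECs (-0.86 ± 0.07) and above the 1.80 to 18.5 CPM of the low cells (2.33 ± 0.45). Of the 14 RANK, CD40, lymphotoxin and NF-kB genes, 7 were higher, 1 lower and 6 did not pass against the low cells, and 1 was higher, 6 lower and 7 did not pass against other Ccl21a-high TECs. Nfkb2, of the alternative pathway, also lay between (1.14 and -0.38), and Nfkb1 differed in the opposite directions (-0.95 and 0.30). Of mature mTEC genes, 4 of 9 were higher and 0 lower than in the low cells, and 0 of 10 higher and 6 lower than in other Ccl21a-high TECs (median -0.60). Fezf2, a regulator of self-antigens, showed 1.81 and -0.99, and Ubd differed by -1.34 from other Ccl21a-high TECs. Of MHC class II genes, 2 of 7 were higher and 3 lower than in the low cells, and 3 higher and 0 lower than in other Ccl21a-high TECs. All genes together had 12.1% higher and 10.9% lower, and 7.85% and 8.05%.

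Among genes at 50 CPM or more in the higher group and of 1 sign in 4 of 4 libraries, the largest falls against other Ccl21a-high TECs were Pvalb, parvalbumin (-2.21), Wfdc18, a secreted protein of the whey acidic protein family (-1.75), Msln, mesothelin (-1.70), Rgs5, a regulator of G protein signalling (-1.55), and Pnmal2 (-1.48). Wfdc18 was at 2339.7, 1142, 2495 and 929.5 CPM against 3166 to 8623 CPM. Under the same limits, the largest rises were Fmod, Mgll, a monoacylglycerol lipase (2.29), Igfbp7 (2.12), Pmp22, a myelin protein (2.02), and Gstm2, a glutathione transferase (1.85). In a list of 20 genes that the study picked from these libraries for a subcluster of TEC progenitors, which is no independent evidence of its direction, 12 of 19 were higher and 0 lower than in the low cells, and 3 were higher and 9 lower than in other Ccl21a-high TECs. Complement and defence genes were 4 of 13 higher and 0 lower, and 5 higher and 3 lower. The shares over all genes in these comparisons were 12.1% and 10.9%, and 7.85% and 8.05%. Defb1, a defensin, was at 97.3, 89.6, 120.4 and 144 CPM against 23.4 to 49.1 CPM in other Ccl21a-high TECs (1.71 ± 0.07).

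Signs of stimulation and division were also compared. For all genes, the shares were 12.1% higher and 10.9% lower than in the low cells, and 7.85% and 8.05% against other Ccl21a-high TECs. Of interferon-stimulated genes, 12 of 18 were higher and 2 lower than in the low cells (median 0.53), and 8 higher and 0 lower than in other Ccl21a-high TECs (median 0.21). Of AP-1 genes, 3 of 7 were higher and 2 lower, and 0 higher and 3 lower. Of immediate early and stress genes, 4 of 15 were higher and 6 lower, and 2 higher and 6 lower. Of cell cycle genes, 1 of 14 was higher and 4 lower, and 0 higher and 3 lower, with Top2a, a topoisomerase of dividing cells, differing by -0.76 and -0.74.

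Cells with 4 to 6 panel genes were compared with those with exactly 3, as a description. Gpx3 was at 3077, 1554, 1326 and 1757 CPM in the former and 2506, 2437, 1211 and 2274 CPM in the latter, with no common direction. Fmod was higher with 4 to 6 panel genes in each library, at 125, 63.3, 89.4 and 108 CPM against 49.1, 44.0, 41.5 and 90.0 CPM. Krt17 was lower in each, at 3053, 3521, 2192 and 2927 CPM against 3635, 3747, 3242 and 4068 CPM. Cells with more panel genes were also deeper, with a median of 12390, 10590, 8269 and 11220 UMIs against 9026.5, 7798, 6908.5 and 8134.

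Between conditions, the Ccl21a-high panel-positive cells of each library were compared with those of WT-Control as log2((CPM + 10)/(CPM + 10)), over genes that reached 50 UMIs in the pair of libraries summed. With the antibody in wild-type mice, 38 of 8470 genes (0.449%) were at least 2-fold higher and 157 (1.85%) lower. Cd40-/- Control had 113 of 8171 (1.38%) higher and 125 (1.53%) lower. With both, 133 of 8858 (1.5%) were higher and 262 (2.96%) lower. Leaving out the deepest cells, those above 2 times the median depth of Ccl21a-low cells of their library (67 of 215 in WT-Control and 35 of 342 in Cd40-/- RANKL-Ab), gave 126 higher and 119 lower in the last comparison, with no excess of lower genes. Its split was 401 higher and 366 lower with 1 CPM added in place of 10, 155 and 98 with at least 4 panel genes, and 124 and 260 without the shared barcodes.

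Interferon-stimulated genes were lowest in Cd40-/- RANKL-Ab. Irf7, a transcription factor of the interferon response, was at 404 CPM in WT-Control (exact Poisson interval 379 to 429.5), 141 in WT-RANKL-Ab (128 to 156), 194 with Cd40-/- Control (176 to 213) and 12.7 with Cd40-/- RANKL-Ab (9.29 to 17.0), a log2 ratio of -4.19 for the last. Ifit3 was at 427, 160.2, 362 and 18.4 CPM (-3.94) and Isg15, a ubiquitin-like modifier, at 1489, 472, 835 and 112 CPM (-3.62). Of the interferon list, 14 of 17 were at least 2-fold lower in Cd40-/- RANKL-Ab (median -2.11, against 0.09 over all genes), 7 of 18 in WT-RANKL-Ab (median -0.80, against 0.13) and 1 of 18 in Cd40-/- Control (median -0.37, against 0.14). Without the shared barcodes, 14 of 17 were lower (median -2.15) and Irf7 had a ratio of -4.27. The groups beside them had ratios of the same sign: Irf7 differed by -2.54 in Ccl21a-low progenitor-like cells and -4.06 in other Ccl21a-high TECs of Cd40-/- RANKL-Ab. Ly6a, a surface antigen, was at 2320.3, 1353, 2574 and 373 CPM.

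Ccl11, eotaxin, which attracts eosinophils, was furthest below WT-Control, at 825 CPM (790 to 862), 118 (105 to 132), 648 (615 to 682) and 23.8 (19.0 to 29.4), a log2 ratio of -4.63 in Cd40-/- RANKL-Ab (-4.66 without the shared barcodes) and -2.71 in WT-RANKL-Ab. Both libraries with the antibody were thus below both without it. Ccl11 was at 829, 147, 811 and 26.6 CPM in other Ccl21a-high TECs and at most 39.8 CPM in the low cells. Cd52, a small surface glycoprotein, was at 202, 24.4, 44.9 and 6.23 CPM (-3.71), with 24.1% of its WT-Control UMIs in 1 cell. Spink1, a trypsin inhibitor, was at 0 CPM in Cd40-/- RANKL-Ab, and 96.6% of its WT-Control UMIs came from 1 cell.

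Mature mTEC genes were lower in all 3 libraries than in WT-Control, with 6, 5 and 8 of 9 genes at least 2-fold lower (medians -1.39, -1.01 and -2.16). Beside this and each list that follows here, 1.85%, 1.53% and 2.96% of all genes were at least 2-fold lower (medians 0.13, 0.14 and 0.09). Ubd was at 1079, 278, 442 and 81.3 CPM and Aire at 55.1, 7.65, 19.8 and 0.283 CPM. In WT-Control, 1 cell held 22.1% of the Aire UMIs, 1 cell held 19.3% of those of Ubd and 1 cell held 16.3% of those of Csn2. Aire had a UMI in 2.33% of thinned cells of WT-Control, beside 4.88% of T cell-like and 5.76% of tuft-like cells. WT-Control held only 48 T cell-like cells before thinning, and the part of free RNA in Aire was not tested. Cell cycle genes were at least 2-fold lower for 4, 3 and 8 of 12 (medians -0.86, -0.45 and -1.43), complement and defence genes for 9, 5 and 8 of 12, 12 and 13 (medians -1.97, -0.66 and -1.74), chemokines and scavengers for 4, 0 and 7 of 12, 13 and 12, and the list picked from these libraries for 8, 6 and 9 of 19. For S100a8, of the complement and defence list, 1 cell held 56.1% of the WT-Control UMIs. The counts of lists between conditions were not repeated without the deepest cells.

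Of 8 cTEC genes, 6, 3 and 5 were at least 2-fold higher (medians 1.41, 0.92 and 1.21). In Cd40-/- RANKL-Ab the count without the shared barcodes was 2 of 8 (median 0.59). Psmb11 had a log2 ratio of 3.70, 2.50 and 3.28 and Prss16 of 2.65, 1.14 and 2.09, so both were above WT-Control in all 3 libraries. Without the shared barcodes, the ratios in Cd40-/- RANKL-Ab were 1.83 and 1.21, with Psmb11 at 51.6 CPM in place of 159. The shares of T cell-like and of tuft-like cells with a Psmb11 UMI, given with the cell group tests, were likewise above their WT-Control shares in the other 3 libraries, and the part of free RNA in the result was not tested. In Cd40-/- RANKL-Ab, 26.1% of the Psmb11 UMIs came from 1 cell. The groups beside them were also above their WT-Control levels. Psmb11, Prss16, Ly75, Ctsl and Tbata together were at 4481, 7085, 5083 and 5130 CPM in the Ccl21a-high panel-positive cells. They were at 6147, 11349, 12296 and 13740 CPM in Ccl21a-low progenitor-like cells, and at 2860, 4560, 4385 and 7144 CPM in other Ccl21a-high TECs.

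Immediate early and AP-1 genes had medians above that of all genes in Cd40-/- RANKL-Ab. Klf2, a transcription factor, was at 78.6 CPM (68.0 to 90.5), 161 (146 to 176), 111 (98 to 126) and 397 (376 to 418), a log2 ratio of 2.20 (2.23 without the shared barcodes), beside 0.44 in the low cells and 3.01 in other Ccl21a-high TECs. Fos was at 461, 450.1, 609.9 and 1143 CPM. Of immediate early and stress genes, 0, 1 and 6 of 14 were at least 2-fold higher (medians 0.05, 0.40 and 0.96), and of AP-1 genes 0, 0 and 3 of 7 (medians -0.23, 0.33 and 0.89). Igfbp3, an IGF-binding protein, was at 32.0, 110.3, 44.5 and 225 CPM (2.48), higher in both libraries with the antibody than in both without it. Ndufa4l2, a mitochondrial protein, had a ratio of 2.41 with 31.0% of its UMIs in 1 cell.

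The remaining lists had medians nearer to that of all genes. In Cd40-/- RANKL-Ab they were 0.41 for progenitor genes outside the rule, 0.55 for extracellular matrix, 0.46 for contractile genes, 0.40 for the IGF list, 0.31 for Wnt, 0.22 for keratins, 0.21 for Notch, 0.16 for BMP and activin, 0.04 for epithelial adhesion and identity, 0.01 for the RANK, CD40, lymphotoxin and NF-kB list, 0.33 for 4 thymopoietic cytokines and -0.36 for MHC class II. At most 3 genes of any of these lists passed 2-fold in either direction, but the lists are short. Over all genes in Cd40-/- RANKL-Ab, 1.5% were at least 2-fold higher and 2.96% lower. Of extracellular matrix genes, 3 of 17 (17.6%) were higher and 0 lower. Of progenitor genes outside the rule, 2 of 16 (12.5%) were higher and 1 lower. Of BMP and activin genes, 1 of 10 was higher and 2 (20%) lower. MHC class II genes and thymopoietic cytokines had 0 in either direction.

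**Figure D5:**
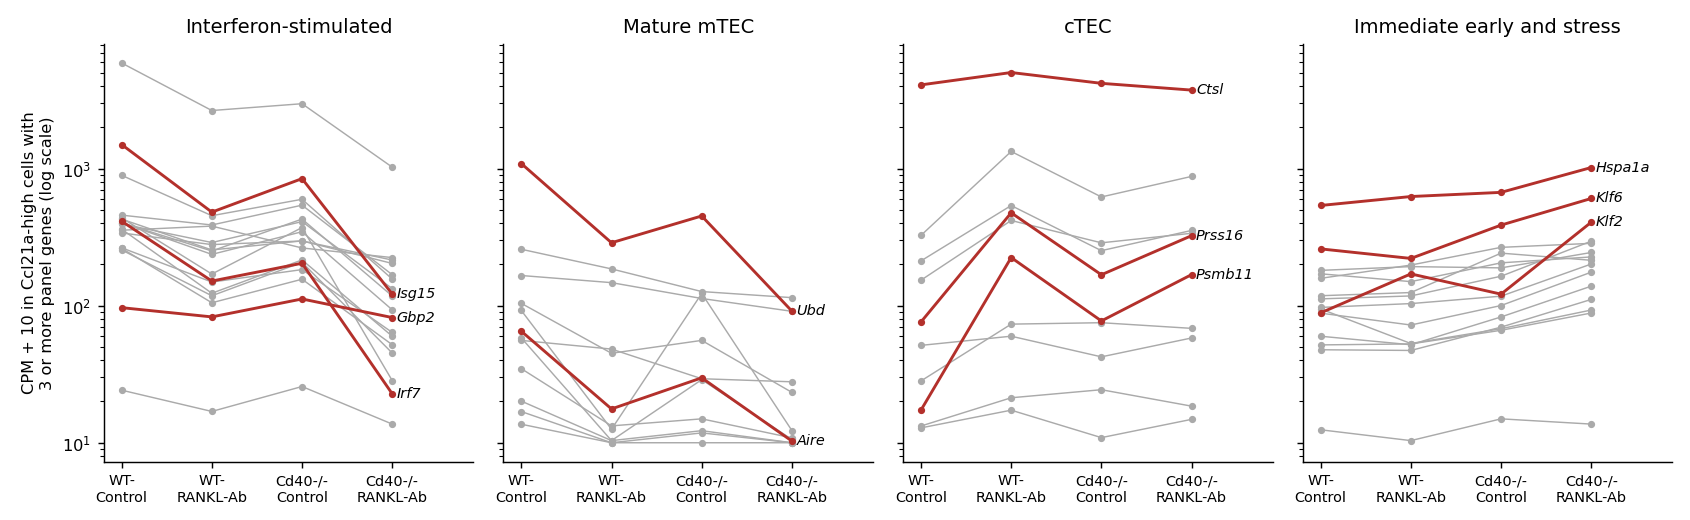
Levels in Ccl21a-high panel-positive cells across the 4 libraries (horizontal axis) as CPM + 10 (vertical axis, log scale) for interferon-stimulated, mature mTEC, cTEC, and immediate early and stress genes. Each line is a gene and the named genes are in red. Between the first and the last library, Irf7 goes from 404 to 12.7 CPM and Klf2 from 78.6 to 397 CPM.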

How the data were processed

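The data were gene-by-cell tables of UMI counts from 4 droplet libraries of sorted mouse TECs. The authors made the deposited counts with Cell Ranger (5.1 in the submitters' processing notes, 5.0.1 in the file headers) on mm10, with no normalization. The labels and the methods of the study name different kit versions for the same libraries, so no kit version is given here.

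Cells were kept and grouped by the stated rule, and UMIs were summed per library and cell group. Sums were tested with edgeR 4.0.16 in R 4.3.3 (TMM, filterByExpr, quasi-likelihood F test, library as a block, Benjamini-Hochberg at 0.05 over all genes tested). The replicate numbers pair nothing between conditions, and the block is the shared library of the cell groups. DESeq2 1.42.0 was an alternative. The remaining steps used pandas 2.3.3, scipy 1.17.1 and numpy 2.4.6 under Python 3.11.15, with figures by matplotlib 3.10.9. Conditions were compared on log2(CPM + 10), without a test. Log2 differences between cell groups come from edgeR. On simulated counts the test recovered 97.0% of 2-fold and 40.3% of 1.5-fold changes against Ccl21a-low cells, and 89.6% and 40.3% against other Ccl21a-high TECs. The simulation used a fixed dispersion and the same fold in each library, and changed only genes above a minimum of summed UMIs. Recovery for genes with fewer UMIs, or with folds that differ between conditions, was not measured. The median depth of the cells was 7334 to 9341 UMIs, and sums of 2226481 to 3531897 UMIs per library limit the precision. UMIs count molecules, and intervals cover counting error only.

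The members and gene lists were chosen with earlier results of these data known. Genes named are those of the lists and, for each cell group test, the 5 largest rises and 5 largest falls at 50 CPM or more with 1 sign in 4 of 4 libraries, the 10 higher and 5 lower in both tests with the largest smaller change, and the 5 largest rises and falls in Cd40-/- RANKL-Ab. No doublets were removed beyond the T cell gate, and an alternative left out the deepest cells. Gene positions were taken from GENCODE M21 (GRCm38).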

Additional observations from a re-analysis of the deposited data

Results flagged for a closer look

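The share of Ccl21a-high cells among all cells with at least 3 panel genes moved in opposite directions with the RANKL antibody in the 2 genotypes. Its log2 ratio was -0.80 for WT-RANKL-Ab over WT-Control and 0.47 for Cd40-/- RANKL-Ab over Cd40-/- Control. Over the other settings of the rule it ranged from -0.86 to -0.61 in wild-type and from 0.38 to 0.62 in Cd40-/- mice. With 1 library per condition this difference was not tested.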

How the results depend on the processing

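Several results changed size with the limits on depth, panel and library. The log2 ratio of the share of kept cells to WT-Control was 1.61, 0.99 and 3.53 (WT-RANKL-Ab first, then the control and antibody libraries of Cd40-/- mice) with at least 4 panel genes, 1.54, 1.30 and 3.63 with each cell thinned to 3000 UMIs, and 3.23 in Cd40-/- RANKL-Ab over Epcam-positive cells without T cell genes. The ratio of the share of progenitor-like cells after thinning was -0.20 for Cd40-/- Control and 0.33 for Cd40-/- RANKL-Ab, and 0.19 in Cd40-/- RANKL-Ab with at least 4 panel genes, so the -0.11 of Cd40-/- RANKL-Ab turned positive in both.

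The genes differing from Ccl21a-low cells, from other Ccl21a-high TECs and from both numbered 1632, 1178 and 108 by DESeq2, 1489, 1021 and 119 after thinning, and 1294, 4 and 0 with no replicate block, where libraries are the block and the cell groups are paired within them. In edgeR without the block, 1086 and 95 genes in the last 2 comparisons had an unadjusted p under 0.05. Without TMM factors the first comparison turned from 1343 higher and 1211 lower to 995 and 1856. With no filter on low counts 358 genes differed from both. With at least 4 panel genes the first and the last count were 1213 and 90. Leaving out 1 library at a time gave 1805 to 1970, 1097 to 1639 and 86 to 152 genes.

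The count past 2-fold in Cd40-/- RANKL-Ab, 395 (133 higher and 262 lower), was 767 (401 and 366) with 1 CPM added, 245 (126 and 119) without the deepest cells and 253 (155 and 98) with at least 4 panel genes, so the excess of lower genes was lost in these settings. The slopes were 0.71, 0.52, 0.61 and 0.66 with at least 4 panel genes. With 1 CPM added, the medians of mature mTEC, cell cycle, and complement and defence genes in Cd40-/- RANKL-Ab were -3.72, -2.34 and -2.81. With TMM factors between libraries, MHC class II was at -0.21 in WT-RANKL-Ab and -0.43 in Cd40-/- RANKL-Ab, and Notch at -0.15 in Cd40-/- Control. The cause of these moves was not tested. Leaving out shared barcodes, and requiring 4 panel genes in the tests, were chosen after seeing the data. The other 261 values stayed within 1.5 times the count, the interval or the spread of their result. Of values of named genes, 77 of 77, 331 of 334 and 322 of 350 kept their call and the rest fell below it.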
